A study of Rattus norvegicus with 23 samples.

Results

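Smooth muscle and pericyte markers were followed in rat lung after repeated breathing of eucalyptus wood smoke. They were 10 genes taken by gene symbol from the 19249 genes of the deposited table, namely Acta2, Tagln, Myh11, Cnn1, Des, Myl9, Lmod1, Pdgfrb, Cspg4 and Myocd, and all 10 were found and passed the level filter. The rats were male, and neither strain nor age is given in the labels. Air rats breathed filtered air (n = 7 libraries), low smoke rats a chamber run to a carbon monoxide target of 10 ppm (n = 8) and high smoke rats one run to 20 ppm (n = 7). Exposure was of the whole body, on 4 days of week 1 and, after a break of 3 days, on 3 days of week 2. Each library was made from about 35 mg of frozen lung, and the labels name each sample as a separate rat. Airway, vessel and alveolar wall were measured together.

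Smooth muscle wraps the airways, the pulmonary arteries and the veins, and pericytes lie along the capillaries and share its descent in part. Its contractile genes are switched on together by serum response factor, which binds CArG boxes in their promoters and is held in its muscle mode by the coactivator myocardin. Alpha smooth muscle actin is also made by myofibroblasts, so no single one of these genes marks one cell type. In bulk lung, a lower number of cells of a type and less RNA per cell cannot be told apart, and the same holds for rises.

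Promoter sequences are shown for Acta2, Cnn1 and Des, which varied together within groups as described further on, because the CArG box is the element that this gene class is known for. RefSeq promoters of assembly GRCr8, each running from 250 bases before to 50 bases after the gene start, were held for 4 of the 10 genes (Acta2, Cnn1, Des and Cspg4). Capitals mark CArG-like elements, that is, a CArG box in which 1 letter of the central A and T stretch is G or C. This looser form was chosen after the sequences were seen.
Acta2: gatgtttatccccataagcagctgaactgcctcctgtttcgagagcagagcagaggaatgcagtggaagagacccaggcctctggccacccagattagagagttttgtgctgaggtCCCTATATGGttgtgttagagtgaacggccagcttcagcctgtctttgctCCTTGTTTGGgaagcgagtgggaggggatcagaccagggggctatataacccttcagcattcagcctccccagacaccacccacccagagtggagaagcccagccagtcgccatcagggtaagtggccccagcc
Cnn1: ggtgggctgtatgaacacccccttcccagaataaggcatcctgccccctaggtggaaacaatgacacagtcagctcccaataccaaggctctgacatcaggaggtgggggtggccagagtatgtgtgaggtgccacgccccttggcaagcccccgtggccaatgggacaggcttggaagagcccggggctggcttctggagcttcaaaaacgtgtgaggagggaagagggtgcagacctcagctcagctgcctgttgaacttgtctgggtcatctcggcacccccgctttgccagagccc
Des: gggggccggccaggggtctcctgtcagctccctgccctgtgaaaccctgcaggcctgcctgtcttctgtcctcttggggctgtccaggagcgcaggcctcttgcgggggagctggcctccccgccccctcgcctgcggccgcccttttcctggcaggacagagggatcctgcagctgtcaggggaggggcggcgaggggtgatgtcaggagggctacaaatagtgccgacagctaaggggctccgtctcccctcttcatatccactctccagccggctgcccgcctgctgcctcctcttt
The Acta2 promoter lies at chr1:241172454-241172753 on the minus strand, that of Cnn1 at chr8:28908187-28908486 on the plus strand and that of Des at chr9:84299376-84299675 on the plus strand. No full CArG box was found on either strand in the 4 promoters, while 1.64% of all 33469 rat promoters of this length held one. Acta2 held 2 CArG-like elements, CCCTATATGG beginning 134 bases and CCTTGTTTGG beginning 84 bases before the annotated start, and the other 3 promoters held none. At least 1 such element was present in 8.1% of all promoters, and 2 or more in 0.532%. A match describes the letters in the window and does not show binding.

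Depth was 8484445 to 12055982 read equivalents per library, and the values are normalized counts. Defining lung genes were abundant in every library, with the summed level of 6 surfactant and alveolar markers at 140591 or more. High smoke replicates 1, 3 and 7 stood apart on the first principal component of all genes, which carried 19.7% of the variance. Their scores were 36.5 to 51.5, against -21.6 to 8.8 for the other 19 libraries. Values without them are given beside the genes said to rise or fall. Leaving them out took the genes called by limma from 2343 to 124 in high smoke against air. None was then called in high smoke against low smoke.

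High smoke was compared with air to ask which markers differ after the higher exposure. The actin-associated genes Tagln, Acta2 and Cnn1 rose, by 1.52-fold, 1.30-fold and 1.42-fold, while the smooth muscle myosin Myh11 and the pericyte genes Pdgfrb and Cspg4 had differences close to 0. In all, 3 of the 10 markers rose and 0 fell, and 7 did not pass the test. Over all 14414 genes tested, 16.3% passed in this comparison, 9.21% rising and 7.05% falling. With libraries scaled to equal totals 894 genes rose and 1797 fell, against 1327 and 1016. The groups overlapped for all 10 markers, and 1.87% of all genes did not overlap. The median difference of the 10 markers was 0.21 on the log2 scale, and that of all genes tested was -0.002.

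**Figure D1:**
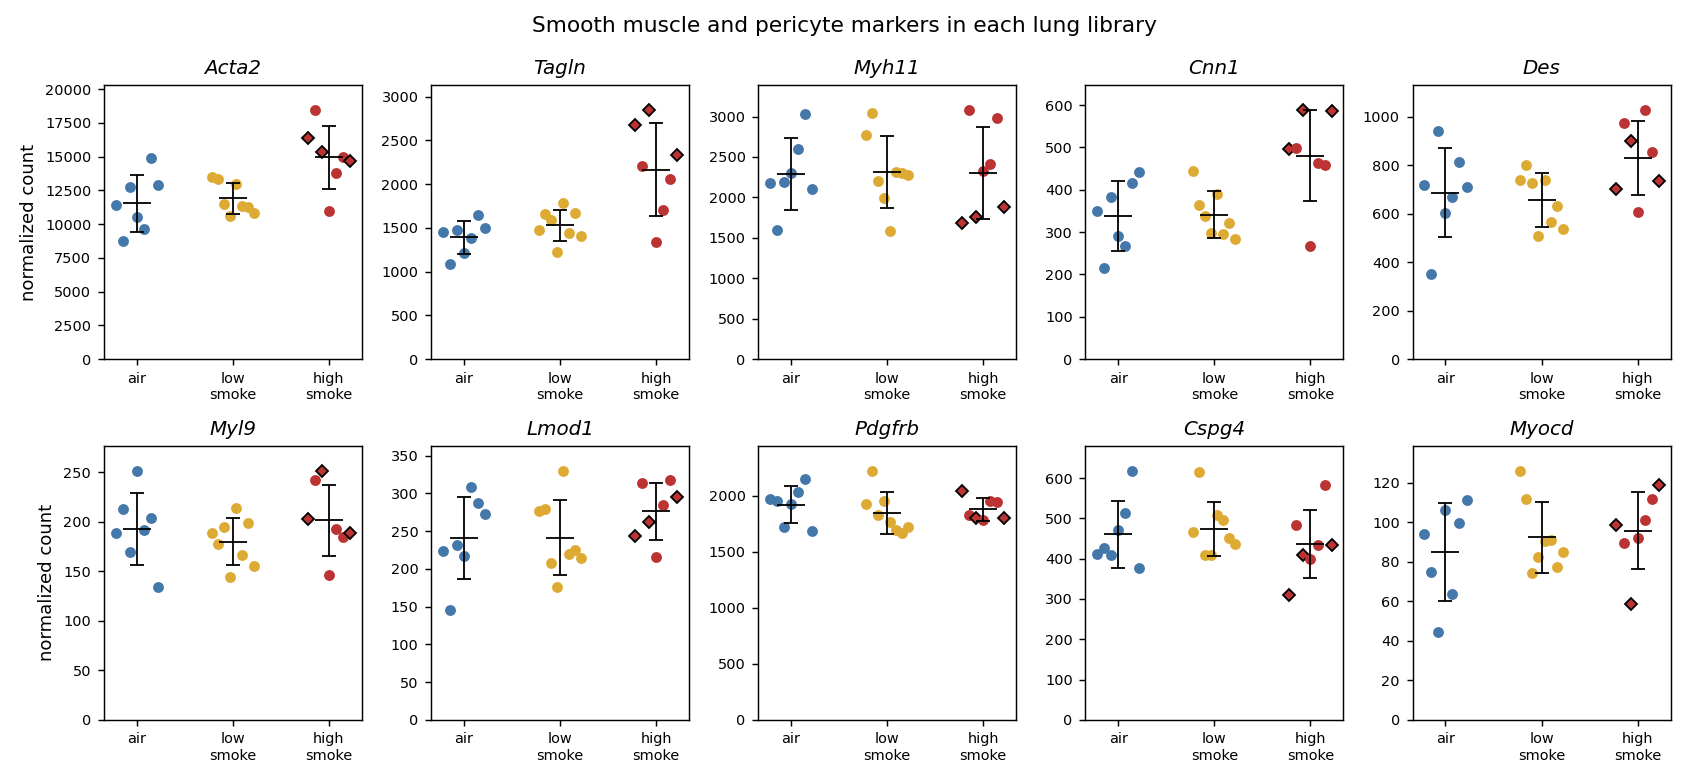
Normalized count of each marker (vertical axes, starting at 0) in every library of the air, low smoke and high smoke groups. Dots are libraries, diamonds with a black edge are high smoke replicates 1, 3 and 7, and bars are the mean and SD. Tagln reached 2849 in high smoke against at most 1645 in air, and the Myh11 groups lay at the same height.

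Tagln encodes transgelin (SM22), an actin-binding protein that is among the earliest genes of smooth muscle differentiation. Its normalized count was 1086 at the lowest, 1457 at the median and 1645 at the highest in air, and 1337, 2205 and 2849 in high smoke. In high smoke 6 of 7 libraries lay above the highest air library, and replicate 4 lay inside the air range. The mean went from 1393 ± 189 to 2166 ± 528 (SD, n = 7 each), a log2 difference of 0.61 with an SE of 0.13 (limma adjusted p = 0.00317).

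Acta2 encodes alpha smooth muscle actin, the thin filament of the contractile apparatus and the usual stain for arterioles and airway muscle. It stood 44th of the 19249 genes by mean normalized count, which is not corrected for transcript length. Its lowest, median and highest counts were 8751, 11416 and 14874 in air and 10953, 14995 and 18460 in high smoke. The groups overlapped, with 4 of 7 high smoke libraries above the highest air library and 6 of 7 above the air mean. The mean rose from 11543 ± 2117 to 14932 ± 2312 (SD, n = 7 each), or 0.38 in log2 units with an SE of 0.11 (limma adjusted p = 0.022).

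Cnn1 encodes calponin, which binds actin and slows the myosin cycle, and marks mature contractile muscle. Its counts ran from 215.8 over a median of 350.1 to 441.2 in air, and from 267.4 over 497.2 to 588.8 in high smoke. All high smoke libraries but replicate 4 lay above the highest air library. The mean rose from 337.7 ± 82.8 to 480.3 ± 107.8 (SD, n = 7 each), or 0.51 in log2 units with an SE of 0.16 (limma adjusted p = 0.0326).

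Without high smoke replicates 1, 3 and 7 none of the 3 was still past the threshold. Tagln then stood at 0.38 (limma adjusted p = 0.16), Acta2 at 0.33 (0.266) and Cnn1 at 0.32 (0.457). Over all genes 124 of 14394 then passed, against 2343 of 14414 with every library. The Acta2 call also ended without air replicate 2 (0.31, adjusted p = 0.0551) or high smoke replicate 1 (0.35, 0.0519), and the Cnn1 call without any 1 of air replicates 2, 4 and 5 and high smoke replicates 1, 3 and 7 (0.41 to 0.49, 0.0646 to 0.0808). Both calls also ended with equal library totals (adjusted p = 0.0606 for Acta2 and 0.0626 for Cnn1), in a fit of the compared groups only (0.0625 and 0.0744) and by the rank-sum test (0.113 and 0.0889), which ended the Tagln call too (0.0889). The first 1020 bases of Tagln in rn6 (chromosome 8, 50222896 to 50231358, minus strand) are also the end of the same-strand gene Sidt2, a lysosomal RNA transporter, so reads there are uncertain. Sidt2 went from 1634 ± 189 to 1353 ± 131 (SD, n = 7 each) and fell by 0.27 in log2 units (limma adjusted p = 0.0164), or stood at -0.19 without high smoke replicates 1, 3 and 7 (0.287). All 8463 bases of Tagln also lie inside a same-strand entry for the small nuclear RNA U2, which runs from 40302908 to 122685327. The mean of U2 was 22.7 in air and 36.6 in high smoke, a log2 difference of 0.66 (limma adjusted p = 0.025). Its value without high smoke replicates 1, 3 and 7 is not reported here. All 35047 bases of Cspg4 lie inside the U2 entry too, on the opposite strand. Acta2 has close coding copies in the other muscle actins, and the mean in air was 91.2 for Actg2 and 253.8 for Actc1.

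Des is an intermediate filament gene and Lmod1 a thin filament gene. They encode desmin, which ties the contractile units together, and leiomodin, which starts actin filaments in smooth muscle. Desmin is also a filament of heart and skeletal muscle. Des had 351.6, 710.6 and 943.0 as its lowest, median and highest count in air and 609.3, 855.3 and 1029.4 in high smoke. The log2 difference was 0.31 with an SE of 0.16 (limma adjusted p = 0.20), short of the threshold, with 6 of 7 high smoke libraries above the air mean. Lmod1 had 145.3, 232.3 and 309.0 in air and 215.1, 284.6 and 317.5 in high smoke. Its difference of 0.22 (SE 0.14, limma adjusted p = 0.319) did not pass, and 5 of 7 high smoke libraries lay inside the air range.

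Myh11, the smooth muscle myosin heavy chain and the most restricted marker of the lineage, had 1593, 2191 and 3035 in air and 1688, 2325 and 3083 in high smoke. The 2 groups covered the same range, and the difference was -0.003 on the log2 scale (95% confidence interval -0.31 to 0.30, limma adjusted p = 0.993). Myl9, a regulatory light chain whose phosphorylation starts contraction, had 133.6, 191.4 and 250.8 in air and 146.3, 192.4 and 251.6 in high smoke. Its difference was 0.06 (interval -0.20 to 0.32, limma adjusted p = 0.772). Both upper bounds lay under the 0.38 of Acta2 but inside its interval of 0.15 to 0.60. The log2 ratio of Acta2 to Myh11, a direct test, differed by 0.38 between the groups (exact two-sided permutation p = 0.0624, adjusted 0.234, n = 7 each).

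Myocd, the coactivator myocardin, was the lowest of the 10 by count, with 44.3, 93.9 and 111.1 in air and 58.6, 98.7 and 118.7 in high smoke. The log2 difference was 0.20 with an SE of 0.18 (limma adjusted p = 0.473), and the groups overlapped over nearly their whole range. Pdgfrb, the receptor through which endothelial PDGF-B recruits pericytes, had 1689, 1956 and 2153 in air and 1780, 1831 and 2046 in high smoke. Its coefficient of variation was 8.55% in air, 10.0% under low smoke and 5.42% under high smoke, the lowest of the 10 in air and high smoke but not under low smoke, where Acta2 had 9.79%. Its difference was -0.03 on the log2 scale (interval -0.17 to 0.11, limma adjusted p = 0.799). Cspg4, the NG2 proteoglycan of pericytes and of some smooth muscle, had 377.2, 426.3 and 618.8 in air and 310.6, 433.2 and 584.1 in high smoke, a difference of -0.08 (interval -0.33 to 0.17, limma adjusted p = 0.682). The upper bounds for Pdgfrb and Cspg4 lay below the 0.38 of Acta2, but that of Cspg4 lay inside the Acta2 interval of 0.15 to 0.60. The log2 ratio of Acta2 to Cspg4 differed by 0.46 between the groups (exact two-sided permutation p = 0.0233, adjusted 0.175, n = 7 each). Neither this ratio nor that of Acta2 to Pdgfrb passed after adjustment.

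Low smoke was compared with air at the lower target. None of the 10 markers passed the test, and limma called 0% of all genes (0 of 14414, with 923 or 6.4% at an unadjusted p below 0.05 and 0 by the rank-sum test). The groups overlapped for all 10 markers and for all but 0.0416% of all genes. The marker with the largest value was Myocd at 0.16 (interval -0.20 to 0.52, limma adjusted p = 0.915). Tagln followed at 0.14 (interval -0.12 to 0.40, adjusted p = 0.886), with counts of 1227, 1533 and 1785 and 7 of 8 low smoke libraries above the air mean. Acta2 stood at 0.06 (interval -0.16 to 0.28), with 10583, 11409 and 13476 as its lowest, median and highest count. Cnn1 stood at 0.04 (interval -0.28 to 0.36), with 283.3, 329.3 and 443.3. The other 6 lay between -0.09 (Myl9) and 0.05 (Cspg4), with Des at -0.03, Pdgfrb at -0.06, Lmod1 at 0.01 and Myh11 at 0.01. The median over the 10 markers was 0.027, against 0.003 for all genes.

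High smoke was compared with low smoke to ask whether the 2 concentrations differ. Tagln rose 1.38-fold, or 0.47 in log2 units with an SE of 0.12 (limma adjusted p = 0.0309), from 1531 ± 178 (SD, n = 8) to 2166 ± 528 (SD, n = 7), and was the 1 marker of 10 past the test. Over all genes 6.78% passed in this comparison, 3.8% rising and 2.98% falling. With equal totals 414 genes rose and 633 fell, against 548 and 429. The groups overlapped for all 10 markers, and 0.694% of all genes did not overlap. Cnn1 stood at 0.47 (SE 0.16, limma adjusted p = 0.066) and Acta2 at 0.32 (SE 0.11, limma adjusted p = 0.0696), each with 6 of 7 high smoke libraries above the highest low smoke library. Des stood at 0.33 (SE 0.16, limma adjusted p = 0.177), and the other 6 between -0.13 (Cspg4) and 0.21 (Lmod1). Each group enters 2 of the 3 comparisons, so their values are not independent.

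The Tagln call ended without any 1 of low smoke replicates 1, 2 and 4 and high smoke replicates 1, 3 and 7 (0.40 to 0.49, limma adjusted p = 0.051 to 0.0901), without the last 3 together (0.24, 0.759) and by the rank-sum test (0.138). With high smoke replicates 1, 3 and 7 left out, no gene of the whole table was called in this comparison. Without high smoke replicate 4, Cnn1 (0.60, limma adjusted p = 0.00891) and Acta2 (0.39, 0.0184) passed too. The calls over all genes then numbered 1651 of 14405, against 977 of 14414 with every library.

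**Figure D2:**
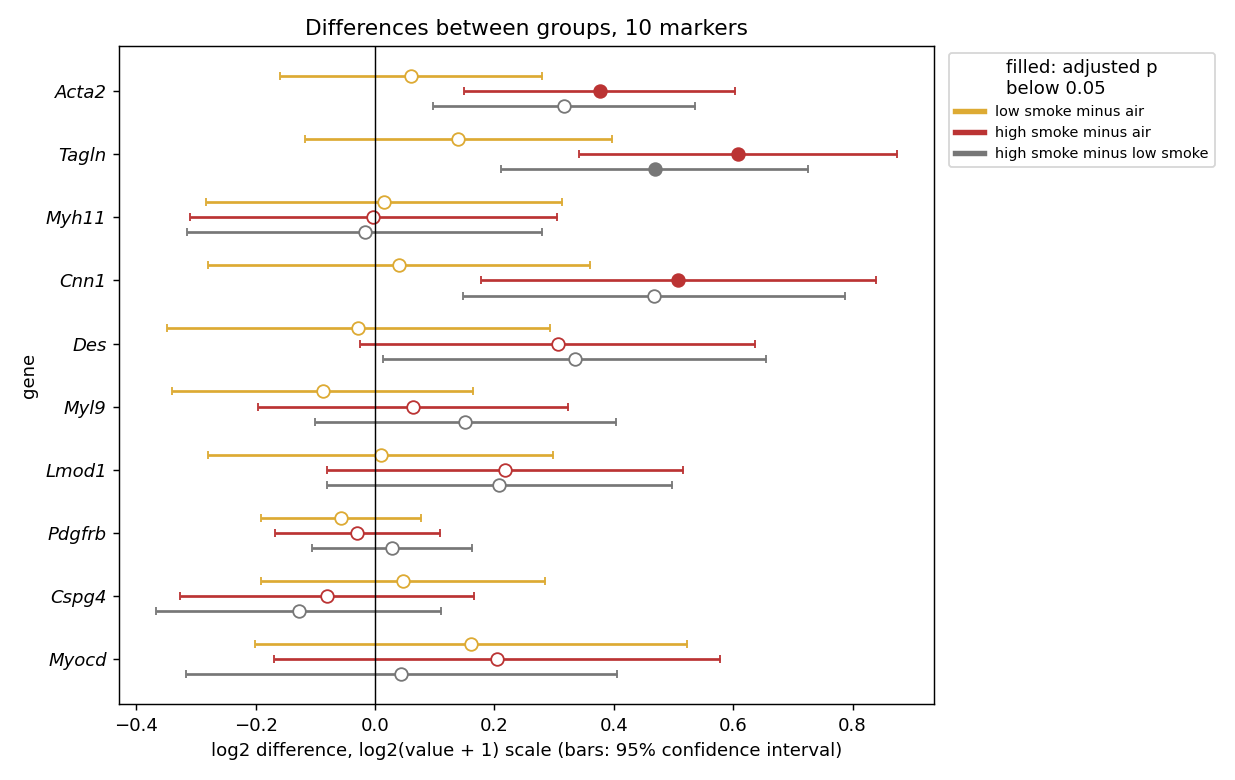
Log2 differences of the 10 markers (horizontal axis) for low smoke minus air, high smoke minus air and high smoke minus low smoke, with 95% confidence intervals from limma. Filled points passed an adjusted p of 0.05, which holds for Tagln (0.61), Cnn1 (0.51) and Acta2 (0.38) in high smoke minus air and for Tagln (0.47) in high smoke minus low smoke.

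The markers did not move alike inside the high smoke group. Replicates 1, 3 and 7 had the 3 highest Tagln counts of the group (2679, 2849 and 2329, against 1337 to 2205 in the other 4) and the 3 lowest Myh11 counts (1688, 1760 and 1877, against 2325 to 3083). Cnn1 was 497.2, 588.8 and 586.8 in them and 267.4 to 498.0 in the rest, while Acta2 (16395, 15329 and 14642) lay inside the range of the other 4 (10953 to 18460). Without the 3 libraries Myh11 stood at 0.25 on the log2 scale in high smoke against air (limma adjusted p = 0.496).

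The log2 ratio of Tagln to Myh11, a ratio within each library, was -0.70 ± 0.20 in air and -0.09 ± 0.63 in high smoke (SD, n = 7 each). Its difference of 0.61 had an exact two-sided permutation p = 0.0221, or 0.175 after adjustment over the 45 ratios between markers. Tagln to Pdgfrb differed by 0.64 (exact permutation p = 0.00466, adjusted 0.158, n = 7 each), with 5 of 7 high smoke libraries above the highest air library. Acta2 to Pdgfrb differed by 0.41 (exact permutation p = 0.0163, adjusted 0.175, n = 7 each). No ratio passed after adjustment, and 9 of 45 had an unadjusted p below 0.05. The smallest p that 7 against 7 allows is 0.000583.

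**Figure D3:**
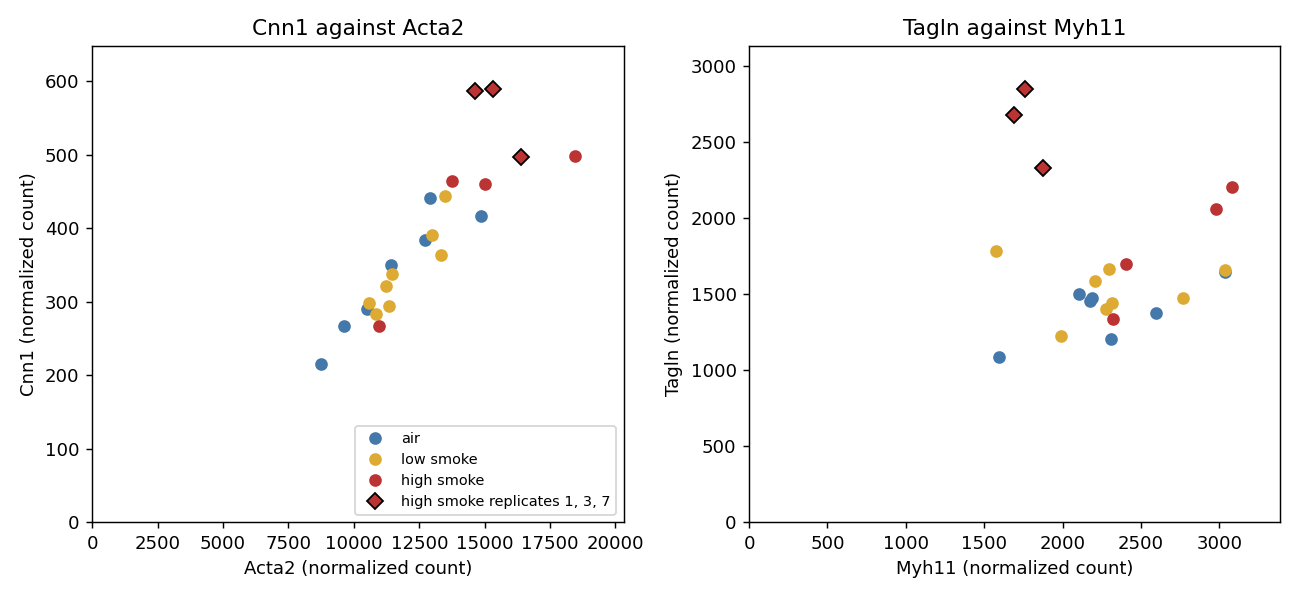
Normalized counts of Cnn1 against Acta2 (left) and of Tagln against Myh11 (right), 1 point per library, coloured by group, with high smoke replicates 1, 3 and 7 as diamonds. Cnn1 was mostly higher where Acta2 was higher, but high smoke replicates 3 and 7 had the highest Cnn1 (588.8 and 586.8) at Acta2 of 15329 and 14642. On the right, high smoke replicates 1, 3 and 7 combine Myh11 of 1688 to 1877 with Tagln of 2329 to 2849.

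Markers were next compared across all 22 libraries after the group means were subtracted, so that differences between group means did not enter. Uneven change among the libraries of a group stayed in. Acta2, Tagln, Cnn1, Des and Lmod1 varied together: all 10 pairs among these 5 passed, with Pearson's r from 0.524 to 0.862. They were picked out after their values were seen. Without air replicate 2, 5 of these 10 pairs still passed, those among Acta2, Tagln and Cnn1 and those of Des with Acta2 and Cnn1, and the 4 pairs with Lmod1 (adjusted p = 0.0541 to 0.154) and Tagln with Des (0.215) did not. Of all 45 pairs 12 passed (permutation test within groups with 100000 resamples, adjusted over the 45), all positive, and 10 of the 12 also passed by Spearman's rho. The count was 7 without air replicate 2.

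Acta2 and Cnn1 gave the highest value, r = 0.862 (adjusted p = 0.0009) and rho = 0.87 (adjusted p = 0.00045). It was 0.798 without air replicate 6 and high smoke replicate 4, the 2 libraries farthest from the median. Within groups r was 0.949 for air, 0.908 for low smoke and 0.753 for high smoke. Tagln and Cnn1 had r = 0.791 (permutation adjusted p = 0.0027, rho = 0.709, adjusted p = 0.0087), or 0.575 without air replicate 2 and high smoke replicate 4. Des and Lmod1 had r = 0.743 (permutation adjusted p = 0.00592, rho = 0.67, adjusted p = 0.0127), or 0.503 without the same libraries. Tagln with Des (0.528) and with Lmod1 (0.524) rested on those libraries, with 0.234 and 0.278 when they were left out, and did not pass by rho (adjusted p = 0.24 and 0.0997).

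Myh11 passed with Cspg4, at r = 0.664 (permutation adjusted p = 0.0106, rho = 0.63, adjusted p = 0.0188), or 0.835 without air replicate 2 and low smoke replicate 5. Its r with Tagln was -0.096 (permutation adjusted p = 0.854, rho = -0.204, adjusted p = 0.601), or -0.306 without air replicate 2 and high smoke replicate 4. Within groups this r was 0.728 for air, -0.071 for low smoke and -0.473 for high smoke. In air alone Myh11 also had r = 0.856 with Lmod1 and 0.705 with Des, and the difference between groups was not tested. Lmod1 also passed with Cspg4 (r = 0.557, permutation adjusted p = 0.0354, rho = 0.654, adjusted p = 0.013), or 0.654 without the same 2 libraries as Myh11 with Cspg4. Myl9, Pdgfrb and Myocd were in no passing pair.

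**Figure D4:**
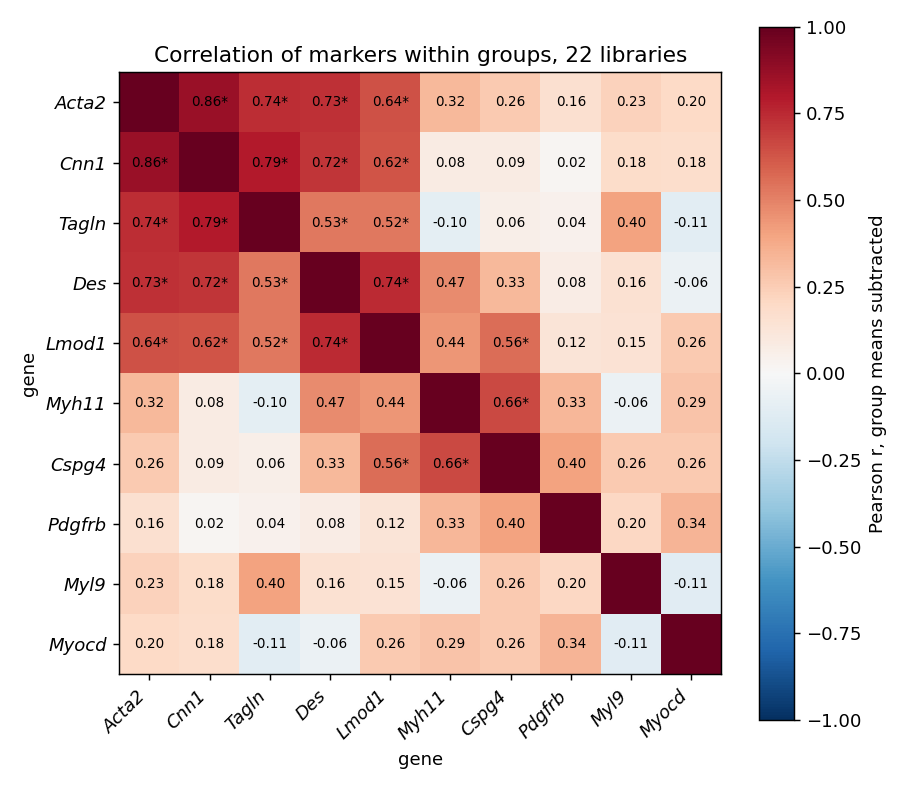
Pearson's r between the markers over 22 libraries with group means subtracted, from -1 (blue) to 1 (red), with an asterisk where the permutation p adjusted over 45 pairs was below 0.05. The block of Acta2, Cnn1, Tagln, Des and Lmod1 holds 10 of the 12 asterisks, and Myh11 with Cspg4 (0.66) stands outside it.

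The genes whose values went most with each marker were taken as the highest r among 10391 other genes over the same 22 centred libraries, and get no test because they were chosen as the highest. For Des the nearest was Actg2, the enteric smooth muscle actin (r = 0.903). For Acta2 it was Lmcd1, a LIM-domain protein of muscle (0.831), and for Myh11 it was Sparcl1, a matrix protein (0.86). Cnn1 lay nearest to Scgb3a2, a secretoglobin of airway club cells (0.89), and Cfap70, a protein of motile cilia, was among its 3 nearest (0.805) and among those of Acta2 (0.774). Tagln lay nearest to Znrd1, an RNA polymerase I subunit (0.909), followed by the kinase Pim1 (0.852). Pim1 rose by 0.82 in log2 units in high smoke against air (limma adjusted p = 0.00401), or stood at 0.41 without high smoke replicates 1, 3 and 7 (0.163). Lmod1 lay nearest to Il11ra1, a cytokine receptor chain (0.838), Cspg4 to the laminin chain Lamb1 (0.867), Pdgfrb to the translation factor Eif4g3 (0.85), Myocd to Abhd15 (0.772) and Myl9 to the water channel Aqp4 (0.684). For the mean of the 10 markers the 5 nearest were Maff and Enah (0.763 each), Spef1 (0.712), Zdhhc8 (0.709) and Tgm2 (0.706).

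Other genes of contraction were taken from lists. Over all genes tested 9.21% rose and 7.05% fell in high smoke against air. Of 22 further contractile and cytoskeletal genes, 1 rose and 0 fell in high smoke against air, with a median of -0.011. The one was Myl6, the essential light chain of smooth muscle and nonmuscle myosin, which rose by 0.59 in log2 units, from 6563 ± 939 to 10079 ± 2762 (SD, n = 7 each, limma adjusted p = 0.00488). Without high smoke replicates 1, 3 and 7 it stood at 0.34 (limma adjusted p = 0.168). Pdlim3, an actin-associated LIM protein, fell by 0.29 in log2 units in high smoke against low smoke (limma adjusted p = 0.0194) and stood at -0.18 against air. Without the same 3 libraries it stood at -0.20 against low smoke (limma adjusted p = 0.653), where no gene was then called.

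Of 16 regulators tested, 3 rose and 2 fell against air, with a median of 0.012. Of all genes tested 9.21% rose and 7.05% fell in that comparison. Tgfb1, a growth factor that induces Acta2 in myofibroblasts, rose 1.30-fold from 267.3 ± 39.3 to 346.5 ± 50.9 (SD, n = 7 each, limma adjusted p = 0.0276). Tgfbr2, its signalling receptor, fell by 0.37 in log2 units, from 1540 ± 249 to 1185 ± 147 (SD, n = 7 each, limma adjusted p = 0.0109). Elk1, which competes with myocardin for serum response factor, rose 1.32-fold (limma adjusted p = 0.00334). Heyl, a Notch target of mural cells, fell by 0.54 in log2 units (limma adjusted p = 0.0121). The fifth was the Notch ligand Jag1, named because the count is small, at 0.22 (limma adjusted p = 0.0437). Without high smoke replicates 1, 3 and 7 none of these 5 passed, at 0.34 for Tgfb1, -0.24 for Tgfbr2, 0.25 for Elk1, -0.32 for Heyl and 0.15 for Jag1 (limma adjusted p = 0.151 to 0.438). Srf itself stood at -0.16 (limma adjusted p = 0.254).

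The shares over all genes in high smoke against air were 9.21% rising and 7.05% falling. Among 14 genes of smooth muscle tone 0 rose and 1 fell against air, with a median of -0.051. It was Pde5a, the cyclic GMP phosphodiesterase of pulmonary arteries, which went from 1807 ± 414 to 1357 ± 250 and fell by 0.39 in log2 units (SD, n = 7 each, limma adjusted p = 0.0498). Of 14 further pericyte genes 1 rose against air, with a median of 0.032. Agtr1a, the angiotensin receptor, rose by 0.23 in log2 units (limma adjusted p = 0.0494) and by 0.26 against low smoke (0.0407). Higd1b, a mitochondrial protein used as a lung pericyte marker, rose in high smoke against low smoke, by 0.78 in log2 units (limma adjusted p = 0.0357). Its level went from 30.8 ± 10.1 (SD, n = 8) to 52.0 ± 11.1 (SD, n = 7), and it stood at 0.63 against air (0.0579). Over the 14 pericyte genes the median against low smoke was 0.024, with 8 above 0. Rgs5, another pericyte gene, stood at -0.38 against low smoke (limma adjusted p = 0.0536) and -0.25 against air (0.179). Without high smoke replicates 1, 3 and 7 the Pde5a, Agtr1a and Higd1b calls ended too. Over all genes 124 calls were then left against air, and none against low smoke. Pde5a then stood at -0.26 against air (limma adjusted p = 0.505), Agtr1a at 0.07 against air (0.70) and 0.11 against low smoke (0.807), and Higd1b at 0.67 against low smoke (0.71). Of 5 PDGF genes none passed in any comparison, and the lowest p in high smoke against air belonged to the ligand Pdgfa (0.30, limma adjusted p = 0.0738) and the receptor Pdgfra (-0.15, 0.385).

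**Figure D5:**
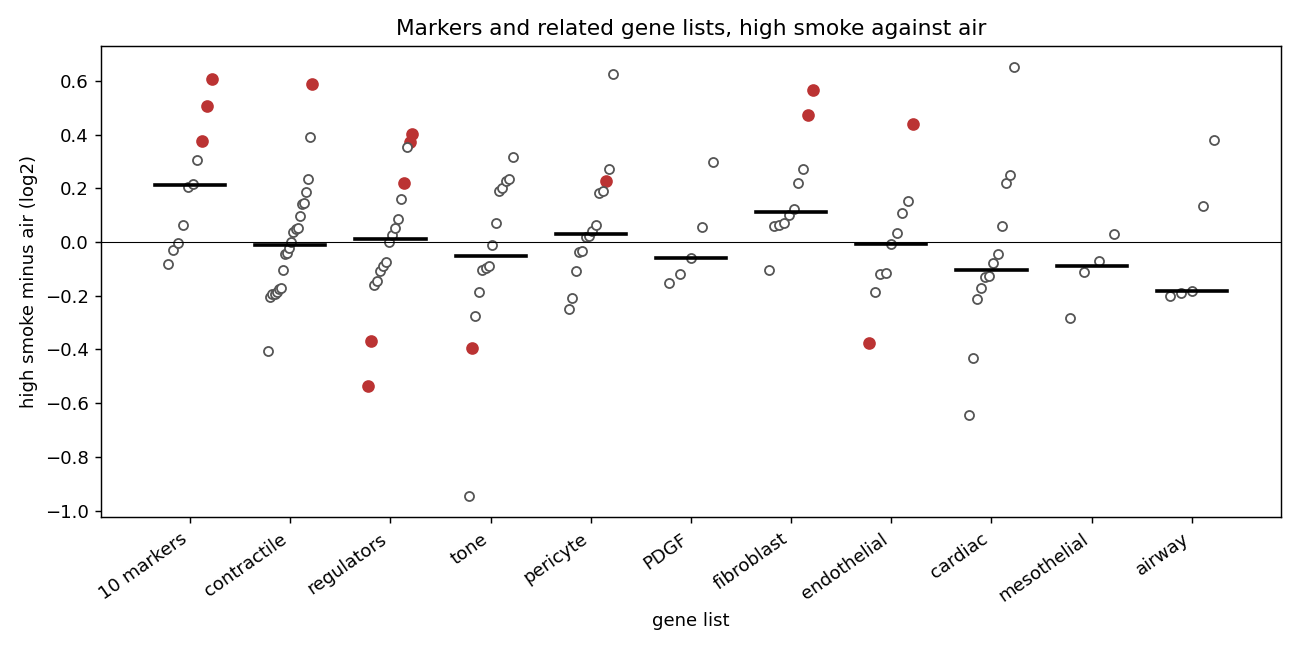
Log2 difference of high smoke minus air for each tested gene of the 10 markers and of the related and other cell type lists, with filled red dots past an adjusted p of 0.05 and bars at the median. The bar of the 10 markers stands at 0.21 and that of the other contractile genes at -0.011.

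Markers of other cell types that hold these genes were measured in the same libraries. Cardiac muscle, which surrounds rat pulmonary veins, makes desmin and myocardin too. Over the 14 cardiac genes found, the summed level of the high smoke libraries was 211.9 to 1606, that of the low smoke libraries 209.7 to 1715 and that of the air libraries 181.5 to 1841. None of the 12 tested passed in any comparison, and their median was -0.10 in high smoke against air, -0.99 in low smoke against air and 1.02 in high smoke against low smoke. The share of all genes passing was 16.3% for high smoke and 0% for low smoke, each against air. It was 6.78% between the smoke groups. All 12 cardiac genes stood lower under low smoke than in air, and all 12 higher under high than under low smoke. Between high smoke and air 4 of the 12 lay above 0. The SEs there ran from 0.27 (Pln) to 1.56 (Myh6) in log2 units, so large differences could go uncalled. Tnni3 (0.65) and Pln (0.25) had the lowest p in high smoke against air (limma adjusted p = 0.416 and 0.558). No marker passed with the cardiac mean across centred libraries, where the highest r was 0.409 for Lmod1 (permutation adjusted p = 0.393, rho = 0.4, adjusted p = 0.194, 10 relations), or 0.177 without air replicate 2 and low smoke replicate 2.

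Fibroblasts, which make Pdgfrb and, as myofibroblasts, Acta2 and Tagln, had 2 of 10 markers up and 0 down in high smoke against air. Their median was 0.112. Of all genes tested 9.21% rose and 7.05% fell there, which holds for each cell type list below. Dcn, the matrix proteoglycan decorin, rose 1.48-fold (limma adjusted p = 0.00631) and Tcf21, a factor of lipofibroblasts, 1.39-fold (0.0205). Their summed level ran from 38951 to 48015 under high smoke, from 39093 to 55033 under low smoke and from 34841 to 44430 under air, and no marker of the list was at 0 in every library. Without high smoke replicates 1, 3 and 7 Dcn stood at 0.47 (limma adjusted p = 0.167) and Tcf21 at 0.23 (0.456). Their part in the rise of Acta2, Tagln and Cnn1 was not tested. Endothelial markers had 1 of 9 up (Cldn5, 0.44, limma adjusted p = 0.00985) and 1 down (Tek, -0.38, 0.0118), which without the same 3 libraries stood at 0.38 (0.188) and -0.19 (0.375), with sums of 36671 to 44907 under high smoke, 40556 to 50683 under low smoke and 37698 to 45203 under air. Mesothelial markers had 0 of 4 past the test (sums 352.4 to 1303, 476.4 to 1207 and 400.8 to 1179 in the same order), with Upk3b at -0.28 and Wt1 at -0.11. Skeletal markers had 0 of 2 tested (sums over the 5 found 33.0 to 65.5, 32.9 to 63.4 and 43.8 to 81.8), with Mylpf at 0.54 and Tnnt3 at -0.23. Airway epithelial markers had 0 of 5 tested (sums over the 7 found 6695 to 11045, 6689 to 9711 and 6763 to 11729), with Scgb3a2 at 0.38 (limma adjusted p = 0.134) and Scgb1a1 at -0.19 (0.322). Of the 6 lung markers 3 rose against air, Ager (0.69), Sftpc (0.69) and Sftpd (0.38), and none of these without the same 3 libraries (limma adjusted p = 0.112 to 0.25).

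The length of the gene in the genome moved with the differences of all genes. Genes spanning under 5 kb had a median of 0.081 in high smoke against air and those over 80 kb one of -0.065. The 3 markers that rose span 12.8 kb (Acta2), 8.71 kb (Cnn1) and 8.46 kb (Tagln). Of the others Myl9 (6.37 kb) and Des (7.72 kb) are the shortest and Myh11 (94.8 kb) and Myocd (95.4 kb) the longest. With the trend along span removed from each library, Tagln (0.54, limma adjusted p = 0.00425), Cnn1 (0.45, 0.0491) and Acta2 (0.34, 0.0309) were still past the threshold, and Myh11 stood at 0.06 (0.811). Over all genes 2216 of 14414 passed with the trend removed, against 2343 before, so most calls in the table stayed. The part of gene length in the 3 rises was not tested.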

How the data were processed

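Lung RNA of 22 rats was analysed (7 air, 8 low smoke, 7 high smoke), grouped by the treatment label. The high smoke sample marked in its label as removed for quality was not analysed here. Per the submitters' processing notes the authors used STAR 2.7.3a, genome build rn6, Partek and DESeq2, without giving their order. The deposited values are a signal unit, gene counts normalized per library by the authors. Annotation and strand setting are not given in the sources used here. Of the values under 200 reads, 80.6% to 82.8% per library lay within 0.02 of a whole number of reads, so reads were not recovered and no count model was used. Depth was 8484445 to 12055982 read equivalents per library, which limits low genes such as Myocd most. No interval for counting error was computed.

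Values were transformed to log2(value + 1), which understates the change of low genes. The 14414 genes with a mean of at least 10 were fitted in 1 model with 3 groups (limma 3.58.1, trend on, robust off, R 4.3.3). P-values are two-sided, with Benjamini-Hochberg adjustment over all genes tested, and "rose" or "fell" means an adjusted p below 0.05. Correlations and exact permutation tests were made in Python 3.11.15. The text names the 10 markers, the list members past the threshold (up to 4 by p, or the 2 with the lowest p in high smoke against air) and the nearest genes by r. One gene that this rule selects is not reported here. Srf, Jag1, Rgs5, Sidt2, U2 and Actc1 fall outside this rule. Members and lists were chosen with earlier results of these data known. Of the listed genes 8 had no row under their symbol and are not analysed here. Alternatives were other pseudocounts, filters, scalings, variance settings, fits, a rank-sum test and leaving out libraries. Removing the trend along gene span was added after the data were seen.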

Additional observations from a re-analysis of the deposited data

Results flagged for a closer look

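One value stood far from its group. Cnn1 in high smoke replicate 4 was 267.4, with a gap to the next library that took 0.598 of the group's range, above the limit of 0.568 for 7 libraries. The other 6 high smoke libraries were 459.5 to 588.8. The same library was also the lowest of its group for Tagln (1337), Acta2 (10953), Des (609.3), Lmod1 (215.1), Myl9 (146.3) and Pdgfrb (1780). Without it the Cnn1 difference from air was 0.64 on the log2 scale instead of 0.51. In all, 30 groups of values (10 genes in 3 groups) were looked at, and chance alone gives about 1 in 20.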

How the results depend on the processing

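No paired analysis was possible because the labels give the groups no shared replicate numbers. The low smoke comparison kept 0 markers called under all 34 alternatives, and for all genes it gave 1 call without high smoke replicates 1, 3 and 7 and 0 to 2 with 1 library left out. In high smoke against air the count of markers called was 1 (Tagln) with equal library totals, 1 in a fit of the compared groups only, 0 by the rank-sum test and 0 without high smoke replicates 1, 3 and 7. It was 1 to 3 with 1 library left out. For all genes these counts were 1351 in the fit of the compared groups, 746 by rank sums and 124 without the 3 libraries, with 1453 to 2863 on leaving out 1 library, against 2343. With equal totals 894 genes rose and 1797 fell, against 1327 and 1016. In high smoke against low smoke 2 markers were called in the fit of the compared groups, 0 by rank sums, 0 without the 3 libraries and 0 to 3 with 1 library left out. For all genes there were 183 by rank sums, 0 without the 3 libraries and 29 to 1651 with 1 left out, against 977. The count over all genes in the fit of the compared groups is not reported here for this comparison, so its 2 markers have no share beside them. The count of passing correlations was 7 (without air replicate 2) to 13 with 1 library left out. The cause was not tested.

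Signs turned only for differences that were not called, in 48 of 1020 alternative values. In high smoke against air Myh11 was 0.0551 with array weights, 0.25 without high smoke replicates 1, 3 and 7, 0.0614 with the span trend removed and -0.086 to 0.0689 with 1 library left out. Myl9 was -0.0127 with equal totals, -0.0112 without the 3, -0.0178 with the span trend removed and -0.0208 to 0.136. Cspg4 was 0.0491 without the 3, and Pdgfrb 0.0076 with the span trend removed. In low smoke against air Myh11 was -0.0207 and Lmod1 -0.0254 with equal totals, and Lmod1 -0.0046 with equal upper quartiles. With 1 library left out, ranges there were -0.0684 to 0.0895 for Myh11, -0.106 to 0.0751 for Lmod1, -0.0028 to 0.125 for Acta2, -0.0602 to 0.111 for Cnn1, -0.18 to 0.0567 for Des and -0.0085 to 0.121 for Cspg4. In high smoke against low smoke Pdgfrb was -0.0133 with equal totals. Myh11 was 0.0299 with array weights, 0.237 without the 3, 0.0588 with the span trend removed and -0.0939 to 0.0509 with 1 left out, Cspg4 was 0.0023 without the 3, and Myocd -0.0121 to 0.156 with 1 left out.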
